A study of Saccharomyces cerevisiae with 4 samples.

Results

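The genes of purine nucleotide synthesis in budding yeast, called ADE genes because mutants need adenine, were followed in 4 cultures. The set was fixed by name as 10 genes: ADE4, ADE5,7, ADE8, ADE6, ADE2, ADE1, ADE13, ADE17, ADE12 and ADE3, in the order of the pathway, with the folate enzyme last. A probe set was listed in the array annotation for 9 of them, 1 for each gene, among 5498 probe sets that name 1 S. cerevisiae gene. ADE5,7, a bifunctional enzyme gene of an early and a middle step, is not analysed here. All 9 probe sets were bright enough to be tested, among 5470 tested in all.

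Of the 4 cultures, 2 carried p425-GPD-RNase H1 (1 array each), and the other 2 carried the same plasmid without the insert, p425-GPD, here called the empty vector (1 array each). The plasmid is a multicopy vector with the LEU2 marker, and its insert stands behind the strong constitutive GPD promoter. RNase H1 is an enzyme that cuts RNA paired with DNA, and the labels do not name the species of the insert. All cultures were strain BY4741, of mating type a, labelled as deleted at ura3, leu2, his3 and met15 and grew to mid-log phase in synthetic medium lacking leucine. The labels call the replicates biological. Signals were read on the Affymetrix Yeast Genome 2.0 array after amplification of total RNA, and the values are MAS5 signals on a linear scale.

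Yeast makes purines on a sugar phosphate, PRPP, which is turned step by step into the ring of IMP, and IMP is then turned into AMP or GMP. One-carbon units carried by folate and the amino acid glycine are built into the ring. When adenine is scarce, intermediates of the pathway favour the pairing of the factors Bas1 and Pho2, which switch on ADE genes together with genes of histidine and glycine metabolism. When adenine is plentiful, cells take it up and salvage it, and the pathway is repressed.

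The log2 fold changes of all 9 tested ADE genes lay above 0, but the differences were small and 0 of the 9 passed the test in limma. A gene was called at a Benjamini-Hochberg adjusted p under 0.05 over all tested probe sets, and that rule called 1.13% of all probe sets as higher and 0.347% as lower. The median log2 fold change of the 9 was 0.20 (1.15-fold), against −0.02 over all tested probe sets. At an unadjusted p under 0.05, 2 of the 9 were higher and 0 lower, against 11% and 12.7% of all probe sets. Both RNase H1 arrays lay above both empty vector arrays in 7 of the 9 and below them in 0, against 28% and 30.8% of all probe sets. A log2 fold change above 0 was found for 48.6% of all probe sets. The members were chosen with earlier results of these data known, so these counts are a description and not a test. Since the signal reports RNA in a whole culture, a change in the make-up of the culture and a change per cell cannot be told apart.

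**Figure D1:**
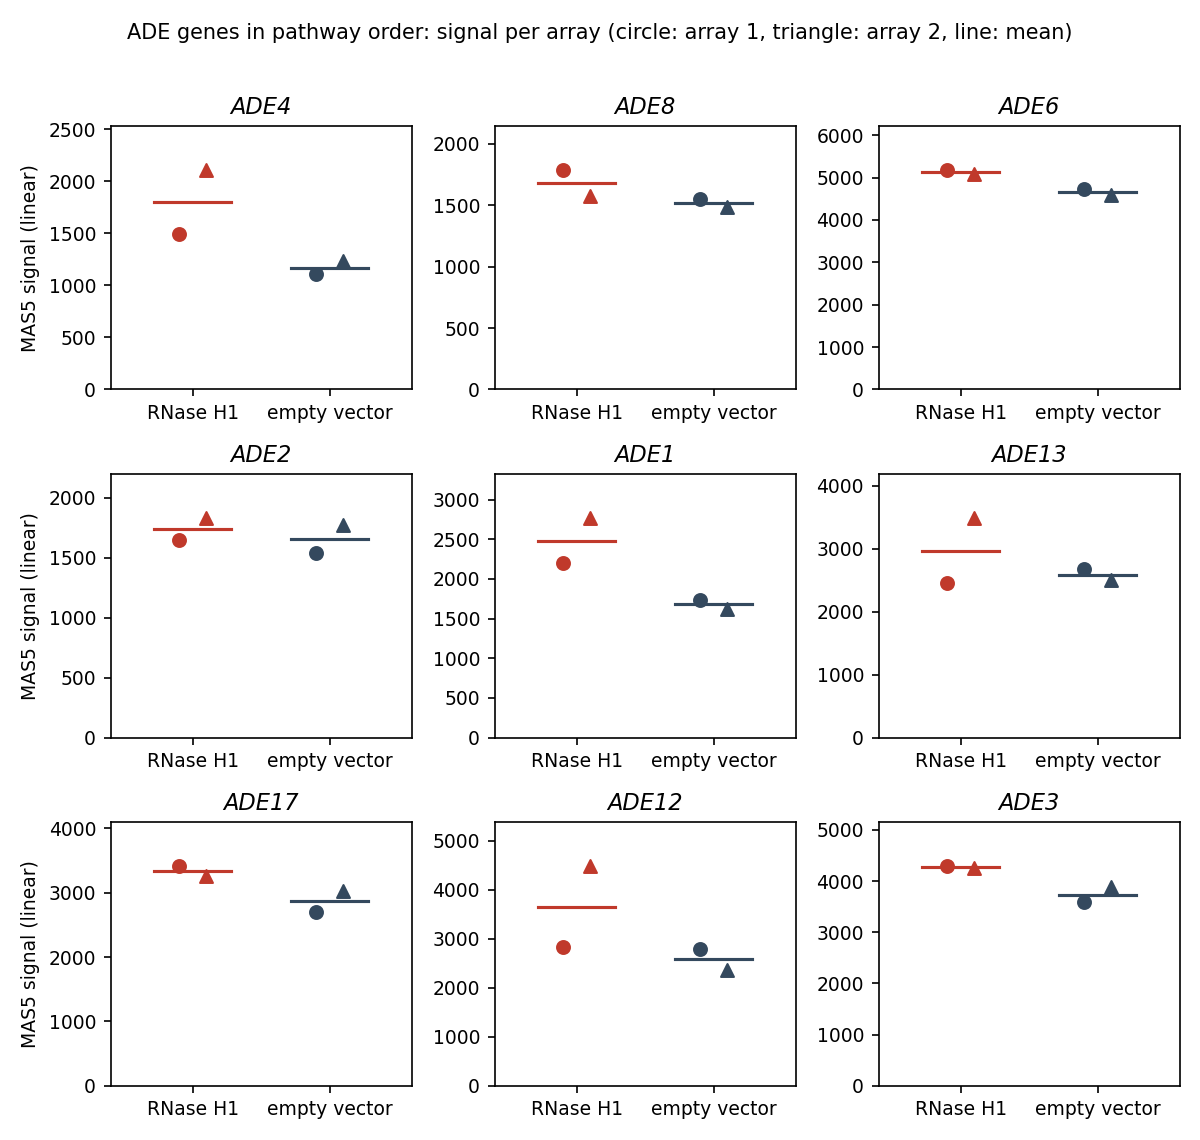
MAS5 signal (linear, y axis from 0) of the 9 ADE genes with a probe set, 1 panel per gene in pathway order. In each panel RNase H1 arrays stand on the left and empty vector arrays on the right, circles are array 1, triangles array 2 and lines the mean of 2 arrays. ADE4, ADE1 and ADE12 show the widest steps between the groups, and ADE4, ADE13 and ADE12 the widest gaps between the RNase H1 arrays.

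ADE4 (YMR300C) encodes the amidotransferase of the first committed step, which places an amino group on PRPP and is inhibited by the end products. Its signals were 1498 and 2109 in the RNase H1 arrays, against 1106 and 1231 in the empty vector arrays. The groups did not overlap, and the RNase H1 arrays lay 1.41-fold apart, against 1.11-fold for the empty vector arrays. The log2 fold change was 0.61 ± 0.21 (SE, n = 2 against 2), a difference of 1.52-fold with a 95% interval of 1.05-fold to 2.21-fold, and did not pass (limma adjusted p = 0.182). It was the largest log2 fold change among the 9 members.

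The next steps of the ring, as far as probe sets were listed, showed smaller differences. ADE8 (YDR408C), whose enzyme adds the first formyl group from folate, had signals of 1786 and 1573 in the RNase H1 arrays, against 1547 and 1483 in the empty vector arrays. The RNase H1 array nearest to the controls exceeded the higher control by little, and the log2 fold change was 0.15 ± 0.13 (95% interval −0.20 to 0.49, limma adjusted p = 0.525). ADE6 (YGR061C), the synthetase that takes nitrogen from glutamine, had signals of 5176 and 5080 in the RNase H1 arrays, against 4738 and 4581 in the empty vector arrays. Both groups were tight, with 1.02-fold between the RNase H1 arrays and 1.03-fold between the controls. The difference of ADE6 was 0.14 ± 0.07 on the log2 scale (95% interval −0.04 to 0.32, limma adjusted p = 0.291), the narrowest interval of the 9 members.

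ADE2 (YOR128C) encodes the carboxylase whose loss turns colonies red, because its substrate builds up as a pigment in the vacuole. Its signals were 1649 and 1830 in the RNase H1 arrays, against 1541 and 1776 in the empty vector arrays. These groups overlapped, and ADE2 had the smallest log2 fold change of the 9, 0.07 ± 0.14 (95% interval −0.29 to 0.43, limma adjusted p = 0.785).

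ADE1 (YAR015W) encodes the synthetase that makes SAICAR, an intermediate known as a signal of the pathway to its activators, and works directly after the enzyme of ADE2. Its signals were 2194 and 2765 in the RNase H1 arrays, against 1740 and 1620 in the empty vector arrays. The lower RNase H1 array stood well above the higher control, and the difference was 1.47-fold with a 95% interval of 1.11-fold to 1.94-fold (log2 0.55 ± 0.15, limma adjusted p = 0.137). That adjusted p was the lowest among the 9 members. ADE1 and ADE4 were the 2 members whose interval lay wholly above 0 before adjustment.

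ADE13 (YLR359W) encodes adenylosuccinate lyase, which acts both on the way to IMP and on the way from IMP to AMP. Its signals were 2452 and 3488 in the RNase H1 arrays, against 2679 and 2502 in the empty vector arrays. RNase H1 array 1 lay below both controls and array 2 above them, so the groups overlapped, and the log2 fold change was 0.18 ± 0.19 (95% interval −0.32 to 0.67, limma adjusted p = 0.603). ADE17 (YMR120C) encodes the enzyme that adds the last formyl group and closes the ring to IMP. Its signals were 3411 and 3254 in the RNase H1 arrays, against 2697 and 3033 in the empty vector arrays. The groups were separate but the controls were 1.12-fold apart, and the log2 fold change was 0.22 ± 0.10 (95% interval −0.05 to 0.49, limma adjusted p = 0.271). ADE16 (YLR028C), its paralog for the same reaction, had signals of 2736 and 2380 in the RNase H1 arrays, against 2368 and 2545 in the empty vector arrays. The ADE16 groups overlapped, with a log2 fold change of 0.06 ± 0.12 (limma adjusted p = 0.802). The difference between the paralogs' changes was not tested.

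ADE12 (YNL220W) encodes adenylosuccinate synthase, the first step from IMP to AMP. Its signals were 2823 and 4476 in the RNase H1 arrays, against 2786 and 2369 in the empty vector arrays. RNase H1 array 1 was almost level with the higher control, while array 2 was 1.59-fold above array 1, the widest gap between the RNase H1 arrays among the 9 members. The log2 fold change was 0.47 ± 0.24 with the widest interval of the 9, −0.17 to 1.11, and did not pass (limma adjusted p = 0.307). ADE3 (YGR204W) encodes the cytoplasmic C1-tetrahydrofolate synthase, which supplies the formyl donor for the steps of ADE8 and of ADE16 and ADE17. Its signals were 4288 and 4262 in the RNase H1 arrays, against 3583 and 3882 in the empty vector arrays. The RNase H1 arrays were 1.01-fold apart and both above the controls, and the log2 fold change was 0.20 ± 0.08 (95% interval −0.02 to 0.41, limma adjusted p = 0.237).

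**Figure D2:**
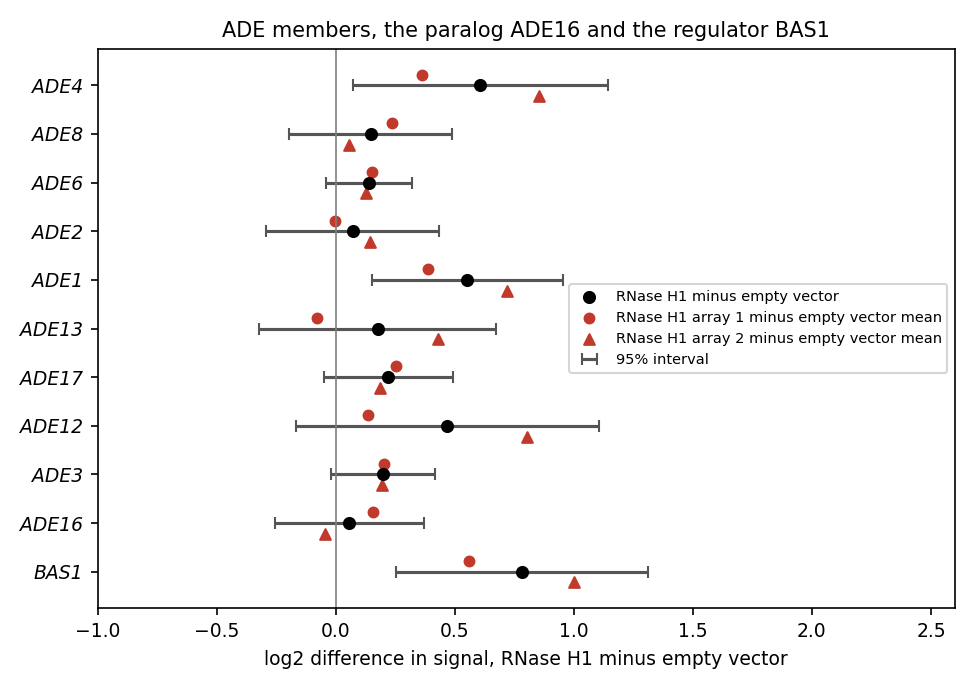
Log2 difference in signal, RNase H1 minus empty vector (x axis), for the 9 ADE genes, the paralog ADE16 and the regulator gene BAS1 (rows). Black points are the differences of group means with their 95% intervals before adjustment, and red circles and triangles are RNase H1 arrays 1 and 2 against the empty vector mean. The intervals of ADE4, ADE1 and BAS1 lie above 0, and those of the other 8 rows include 0.

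By size of fold change, ADE4, ADE1 and ADE12 lay between 1.38-fold and 1.52-fold, and the other 6 members between 1.05-fold and 1.16-fold. The 3 larger differences came with larger gaps between the RNase H1 arrays. In ADE4, ADE1, ADE12 and ADE13, array 2 was at least 1.26-fold above array 1, while in the other 5 the RNase H1 arrays were at most 1.14-fold apart. Against the empty vector mean, ADE4 lay 0.36 higher in array 1 and 0.85 higher in array 2 on the log2 scale. The same differences for ADE1 were 0.39 and 0.72, and for ADE12 0.14 and 0.80. The median over the 9 members was alike in both arrays, 0.20 in array 1 and 0.19 in array 2, whereas their mean was 0.18 in array 1 and 0.39 in array 2. The median gap between the RNase H1 arrays was 1.14-fold for the members and 1.26-fold over all tested probe sets. Between the empty vector arrays it was 1.08-fold for both.

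Which members passed depended on which RNase H1 array was used. Without RNase H1 array 1, 4 members passed as higher, ADE4 (log2 0.85, limma adjusted p = 0.0017), ADE1 (0.72, adjusted p = 0.00175), ADE12 (0.80, adjusted p = 0.00205) and ADE13 (0.43, adjusted p = 0.00703). That fit called 21.7% of all probe sets as higher and 29.3% as lower. Without RNase H1 array 2, ADE1 alone passed among the members (log2 0.39, limma adjusted p = 0.0278), in a fit that called 17% of all probe sets as higher and 15.1% as lower. Both fits take their spread from the empty vector arrays alone, which assumes that the lone RNase H1 array varies as little as they do. ADE2 lay at −0.0047 and ADE13 at −0.079 without RNase H1 array 2, and ADE2 at −0.032 without empty vector array 1.

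The RNase H1 arrays also differed from each other in genes of growth and stress. A list of 16 ribosome biogenesis genes, which follow growth rate, had a median log2 difference from the empty vector mean of 0.32 in RNase H1 array 1 and 1.03 in array 2, and array 2 was the higher in 15 of them. A list of 16 genes of the induced stress response had medians of 0.75 in array 1 and −1.30 in array 2, with array 1 the higher in all but 1. The median over all tested probe sets was 0.04 in array 1 and −0.08 in array 2. Array 2 exceeded array 1 in 5 of the 9 ADE genes, and in 2193 of the 5470 tested probe sets. The part of these differences in the ADE values was not tested.

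**Figure D3:**
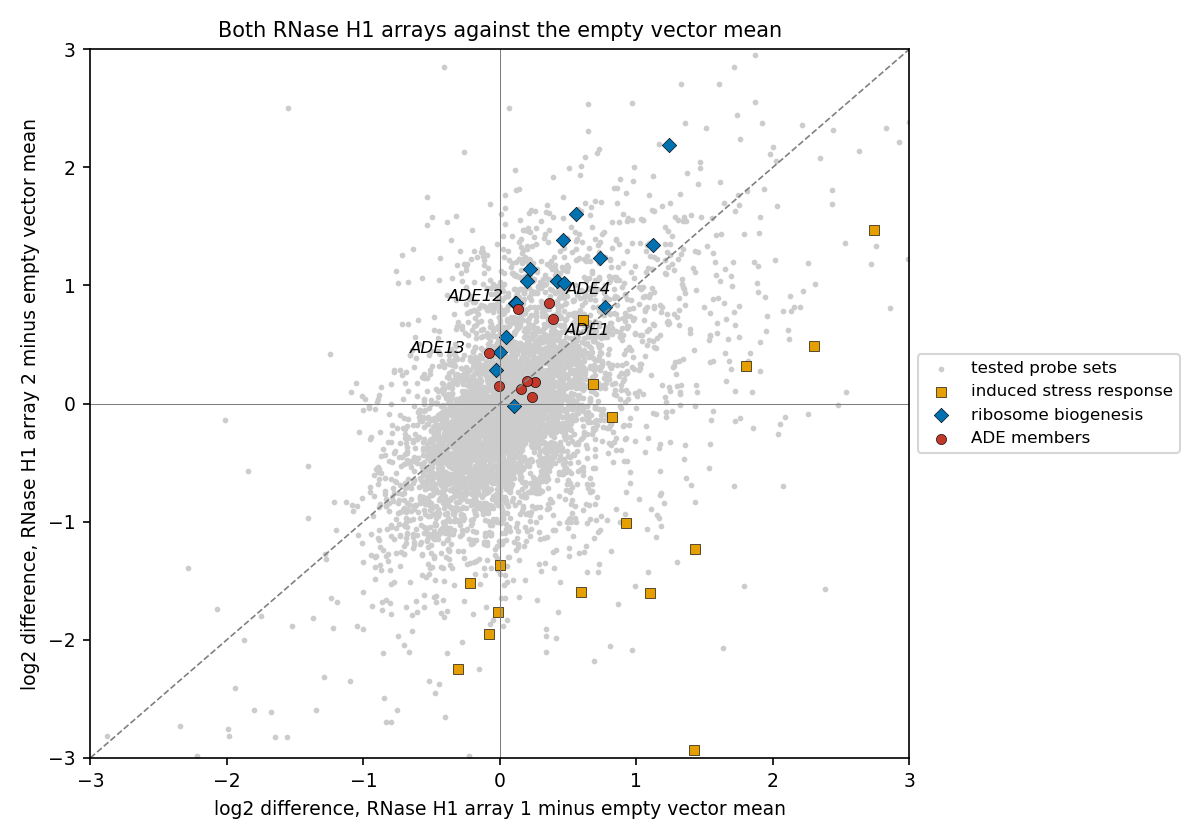
Log2 difference of each RNase H1 array from the empty vector mean, array 1 on the x axis and array 2 on the y axis, for tested probe sets (grey, with 52 outside the plotted range of 3 units either way) and 3 gene lists. The dashed line marks equal differences: ADE4, ADE1, ADE12 and ADE13 lie above it on the side of the ribosome biogenesis genes, the other ADE genes lie near it, and the stress genes lie mostly below.

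Signal sums lay between 6889764 and 6972049 in the RNase H1 arrays and between 7074865 and 7097920 in the empty vector arrays. RNA integrity was read from actin as the signal at its 3′ end over that at its 5′ end. By 1 design of control probe sets this was 1.467 and 1.302 in the RNase H1 arrays, against 1.41 and 1.402 in the empty vector arrays, and by the other 1.68 and 1.48, against 1.34 in both empty vector arrays. The part of these ratios in the ADE values was not tested.

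The labelled mating type and deletions were checked against their markers. The 7 a-specific genes summed to signals of 14179 and 13322 in the RNase H1 arrays, against 27588 and 27827 in the empty vector arrays. In limma 3 of the 7 passed as lower, against 0.347% of all tested probe sets. At an unadjusted p under 0.05 all 7 were lower, against 12.7%, with log2 fold changes between −2.86 and −0.48. The 4 alpha-specific genes summed to 675 and 362 in the RNase H1 arrays, against 438 and 490 in the empty vector arrays, and 0 of the 4 passed in limma. Before adjustment at p under 0.05, 1 was higher and 0 lower, against 11% and 12.7% of all tested probe sets. That 1 was STE3, the a-factor receptor gene, with signals of 138 and 75.6 in the RNase H1 arrays, against 33.6 and 41.5 in the empty vector arrays (log2 1.45 ± 0.40, limma adjusted p = 0.133). SAG1, the alpha-agglutinin gene, read 499 and 263 in the RNase H1 arrays, against 374 and 405 in the empty vector arrays, and the alpha-factor genes MF(ALPHA)1 and MF(ALPHA)2 read between 8.39 and 25.5 in the 4 arrays. The part of these markers in the ADE values was not tested. Among the genes labelled as deleted, URA3 read 2.92 and 4.04 in the RNase H1 arrays, against 0.325 and 0.183 in the empty vector arrays. The mean log2 signal of URA3 was not above the dim filter (a signal of 2.13), so it was not tested and no group difference is drawn from it. MET17, another name of MET15, read between 2.33 and 9.02 in the 4 arrays. HIS3 read 4098 and 3352 in the RNase H1 arrays, against 3288 and 3443 in the empty vector arrays, which goes against a missing transcript in all 4 cultures. Whether its probe set lies within the deleted part of HIS3 is not given in the files. LEU2, which the plasmid carries, read 10348 and 10618 in the RNase H1 arrays, against 12568 and 12870 in the empty vector arrays. The precision is limited by the small number of arrays.

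The activators of the pathway were looked at next. BAS1 (YKR099W), the DNA-binding Myb-type partner, had signals of 1150 and 1561 in the RNase H1 arrays, against 823 and 739 in the empty vector arrays. The groups were well separated, with a difference of 1.72-fold and a 95% interval of 1.19-fold to 2.48-fold (log2 0.78 ± 0.20), yet BAS1 did not pass (limma adjusted p = 0.124). PHO2 (YDL106C), the homeodomain partner that also serves the phosphate pathway, had signals of 295 and 198 in the RNase H1 arrays, against 285 and 360 in the empty vector arrays. These groups overlapped, and its log2 fold change was −0.41 ± 0.28 (95% interval −1.14 to 0.32, limma adjusted p = 0.423). GCN4 (YEL009C), the general activator of amino acid synthesis, which also acts at many of these promoters, had a log2 fold change of 0.10 ± 0.08 (limma adjusted p = 0.488), as measured in its transcript, while its control is mainly translational. On the log2 scale, BAS1 lay 0.56 above the empty vector mean in RNase H1 array 1 and 1.00 above it in array 2. The same differences were −0.12 and −0.70 for PHO2, and 0.01 and 0.18 for GCN4.

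The genes that supply substrates to the pathway were read as 2 lists. Of 5 PRPP synthetase genes, 0 passed in limma, also at an unadjusted p under 0.05, with 4 above 0 and a median log2 fold change of 0.17. PRS4 had the largest log2 fold change of the 5, 0.49 ± 0.24 (limma adjusted p = 0.285), with signals of 1805 and 2876 in the RNase H1 arrays, against 1644 and 1590 in the empty vector arrays. As in ADE12, array 1 lay near the controls and array 2 well above them. Of 13 genes of glycine, serine and folate metabolism, 0 passed in limma, with 4 above 0, 9 below and a median log2 fold change of −0.18. Both RNase H1 arrays lay above both empty vector arrays in 3 of the 13 and below them in 7, against 28% and 30.8% of all tested probe sets. Before adjustment at p under 0.05, 0 were higher and 3 lower, against 11% and 12.7% of all tested probe sets. Without RNase H1 array 1, the log2 fold changes of PRS1, PRS3, PRS4 and PRS5 lay between 0.30 and 0.83. Without array 2 they lay between −0.054 and 0.16. PRS2, the 1 gene of the 5 below 0 in the main fit (−0.09), lay at 0.04 without array 1 and −0.21 without array 2. PRS2 was named after its values were seen.

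The 3 genes lower before adjustment were GCV2, SHM1 and LPD1. GCV2, the glycine decarboxylase that makes one-carbon units in mitochondria, had signals of 2504 and 1776 in the RNase H1 arrays, against 3057 and 3086 in the empty vector arrays. Its groups did not overlap, at a log2 fold change of −0.54 ± 0.19 (95% interval −1.03 to −0.06, limma adjusted p = 0.185). LPD1, the lipoamide dehydrogenase shared by the glycine and pyruvate complexes, was at −0.27 ± 0.10 (limma adjusted p = 0.189), and SHM1, the mitochondrial serine hydroxymethyltransferase, at −0.25 ± 0.09 (limma adjusted p = 0.192). FOL1, of folate synthesis, was at 0.36 ± 0.17 (limma adjusted p = 0.272). From the empty vector mean, GCV2 differed by −0.29 in RNase H1 array 1 and −0.79 in array 2 on the log2 scale. The same differences were −0.20 and −0.35 for LPD1, −0.25 and −0.24 for SHM1, and 0.31 and 0.40 for FOL1.

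Histidine synthesis starts from the same PRPP, returns the purine intermediate AICAR and shares the Bas1 and Pho2 activators. Of its 6 genes listed, 0 passed in limma, and the median log2 fold change was 0.16. Before adjustment at p under 0.05, 2 were higher and 0 lower, against 11% and 12.7% of all tested probe sets. HIS4, a multifunctional enzyme gene of the pathway, had signals of 5886 and 5235 in the RNase H1 arrays, against 4237 and 4443 in the empty vector arrays (log2 0.36 ± 0.09, 95% interval 0.12 to 0.59, limma adjusted p = 0.117). HIS5, the histidinol phosphate aminotransferase gene, was at 0.35 ± 0.13 (limma adjusted p = 0.204), HIS1, of the first step, at 0.16 ± 0.10 (limma adjusted p = 0.397) and HIS7, whose enzyme releases AICAR, at 0.15 ± 0.15 (limma adjusted p = 0.578). In HIS4 and HIS5 it was RNase H1 array 1 that lay higher, and in ADE4 and ADE1 array 2. HIS4 lay 0.44 above the empty vector mean in RNase H1 array 1 and 0.27 above it in array 2 on the log2 scale. The same differences were 0.44 and 0.26 for HIS5, 0.04 and 0.28 for HIS1, and 0.12 and 0.18 for HIS7.

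Purine salvage, uptake and interconversion held the widest differences around the pathway. Of its 17 genes, 0 passed in limma, and the median log2 fold change was −0.10 with a range of −1.94 to 1.25. Before adjustment at p under 0.05, 3 were higher and 4 lower, against 11% and 12.7% of all tested probe sets. APT2, a relative of the adenine phosphoribosyltransferase gene APT1, had signals of 1054 and 1251 in the RNase H1 arrays, against 498 and 469 in the empty vector arrays. Both RNase H1 arrays were over the controls by more than the gap within either group, at 2.38-fold with a 95% interval of 1.75-fold to 3.23-fold (log2 1.25 ± 0.17), and the limma adjusted p of 0.0531 lay just over the threshold. APT1 itself read 2566 and 3258 in the RNase H1 arrays, against 2803 and 2499 in the empty vector arrays, and overlapped.

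FCY21, a relative of the purine and cytosine permease gene FCY2, had signals of 47.2 and 43.2 in the RNase H1 arrays, against 153 and 196 in the empty vector arrays. It was 3.83-fold lower (log2 −1.94 ± 0.27, 95% interval −2.63 to −1.24), with a limma adjusted p of 0.0552, and it passed after quantile scaling (adjusted p = 0.0348) and loess scaling (adjusted p = 0.0407). With a pseudocount its log2 fold change was smaller, −1.63 at 16 and −1.12 at 64, and did not pass (limma adjusted p = 0.0526 and 0.055). FCY21 also did not pass after median scaling (limma adjusted p = 0.0534) or with robust eBayes (adjusted p = 0.0645). Nor did it pass without an intensity trend (limma adjusted p = 0.0903) or with the replicate block (adjusted p = 0.112). FCY2, the main permease gene, read 2420 and 4080 in the RNase H1 arrays, against 2098 and 2174 in the empty vector arrays, with array 2 far above array 1. HPT1, which salvages hypoxanthine and guanine with PRPP, had signals of 1754 and 3096 in the RNase H1 arrays, against 1152 and 1229 in the empty vector arrays. Its groups did not overlap, but the RNase H1 arrays were 1.77-fold apart, and the log2 fold change of 0.97 ± 0.29 did not pass (limma adjusted p = 0.158).

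AMD1, the AMP deaminase gene that leads back to IMP, was at 0.53 ± 0.18 (limma adjusted p = 0.182), with signals of 994 and 794 in the RNase H1 arrays, against 621 and 607 in the empty vector arrays. AAH1, the adenine deaminase gene, read 1433 and 3502 in the RNase H1 arrays, against 1121 and 967 in the empty vector arrays. The RNase H1 arrays of AAH1 lay 2.44-fold apart, the widest such gap in the salvage list, and its log2 fold change was 1.10 ± 0.44 (limma adjusted p = 0.22). In each of the fits that left out 1 RNase H1 array, the log2 fold changes of APT2, HPT1 and AMD1 stayed above 0 and that of FCY21 below 0. Since these fits take their spread from the empty vector arrays alone, no call is drawn from them for these genes. In the salvage list 7 of the 17 genes lay above 0 and 10 below. Besides FCY21, the genes lower before adjustment were GUD1 (log2 −0.88 ± 0.32, limma adjusted p = 0.202), ADO1 (−0.31 ± 0.11, adjusted p = 0.187) and ADK1 (−0.17 ± 0.06, adjusted p = 0.193). APT1, FCY2, AAH1, GUD1, ADO1 and ADK1 were named after their values were seen.

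**Figure D4:**
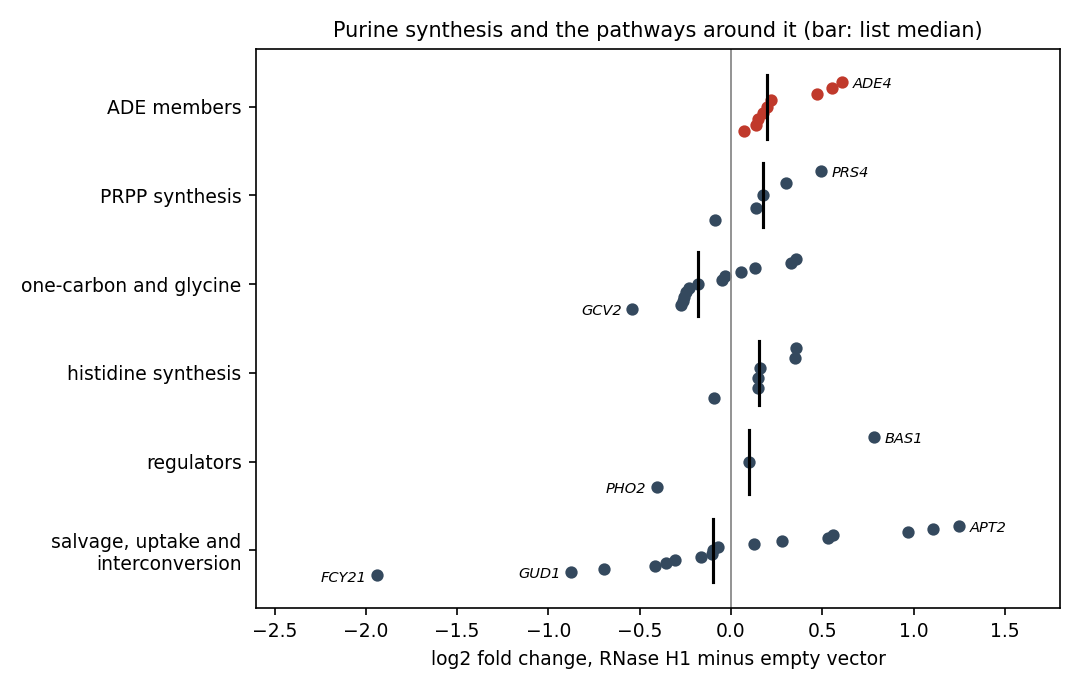
Log2 fold change, RNase H1 minus empty vector (x axis), of each gene in the ADE set (red) and in 5 lists around it (dark), 1 row per list with a bar at its median. The 9 ADE genes all lie between 0.07 and 0.61, while the salvage list runs between −1.94 (FCY21) and 1.25 (APT2).

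The genes beside the ADE genes on the chromosomes were read for comparison. In the R64 annotation the 9 members had 18 adjacent genes, of which 17 were tested and 0 of the members were adjacent to each other. In limma 0 of the 17 passed, against 1.13% of all tested probe sets called higher and 0.347% called lower. Of the 17, 6 lay above 0 and 11 below, against 48.6% of all tested probe sets above 0. Their median log2 fold change was −0.11 with a range of −1.14 to 0.77. Beside ADE1, KIN3 was at −0.83 ± 0.21 (limma adjusted p = 0.124) and BUD14 at −0.05 ± 0.15 (limma adjusted p = 0.867). Beside ADE4, DYN3 was at −0.45 ± 0.21 (limma adjusted p = 0.27) and ATM1 at −0.05 ± 0.17 (limma adjusted p = 0.87). Beside ADE12, POP1 was at 0.66 ± 0.16 (limma adjusted p = 0.109) and ALG9 at −0.28 ± 0.15 (limma adjusted p = 0.32). These neighbours were named after their values were seen.

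The probe sets outside the set whose profile over the 4 arrays was most like the mean of the ADE genes were those of TAF3, MLP2, UFO1, MSS18 and PAT1. Likeness was the root mean square difference of log2 signals, each taken against its own empty vector mean, and it lay between 0.00986 and 0.0247 for these 5. TAF3, a subunit of the general transcription factor TFIID, had signals of 624 and 720 in the RNase H1 arrays, against 546 and 559 in the empty vector arrays. None of these 5 belongs to a list used here, and the likeness over 4 arrays is a description.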

How the data were processed

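Total RNA of 4 yeast cultures was measured on 1 array each. The authors deposited MAS5 signal intensity values on a linear scale, 1 per probe set and array, made with Affymetrix Expression Console, per the submitters' processing notes. The sources used here do not give the MAS5 scaling target. Genes were named through the array annotation and the R64 gene table. Of 10928 probe sets, 5498 named 1 S. cerevisiae gene, and 28 whose mean log2 signal was not above the 75th percentile of the 1746 S. pombe probe sets (a signal of 2.13) were left out.

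Log2 signals without a pseudocount were compared with limma 3.58.1 in R 4.3.3, as RNase H1 minus empty vector (lmFit, eBayes with an intensity trend, two-sided). P-values were adjusted by Benjamini-Hochberg over 5470 probe sets. The steps were tested on simulated data. With 2 arrays a group, the smallest p of an exact permutation test is 0.333. Intervals are 95% limma intervals before adjustment.

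The members and lists were chosen with earlier results of these data known. Text names every member, ADE16, the 3 regulators, the 4 genes of smallest p in each other list and the 5 genes most alike. The labels do not say that equal replicate numbers share a day or batch. Alternatives were other scaling, dim filters, pseudocounts, variance priors, a replicate block, leaving out each array, and a threshold of 0.10.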

Additional observations from a re-analysis of the deposited data

How the results depend on the processing

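Under the 16 alternatives, 0 ADE genes passed as higher in 13 and 0 as lower in all 16, and 141 of 144 log2 fold changes of the 9 genes lay above 0. The 3 others were ADE2 without RNase H1 array 2 (−0.0047) and without empty vector array 1 (−0.032), and ADE13 without RNase H1 array 2. Many of the 144 repeat the main fit, since dim filters, variance priors, replicate blocks and the 0.10 threshold do not alter a fold change. Leaving out 1 array gave log2 fold changes between −0.032 and 0.17 for ADE2, between −0.079 and 0.43 for ADE13, between −0.045 and 0.16 for ADE16 (lowest without RNase H1 array 1) and between −0.054 and 0.33 for PRS1 (lowest without RNase H1 array 2), and a median of all probe sets between −0.084 and 0.043. The median of the ADE genes was 0.25 after quantile, 0.17 after median and 0.30 after loess scaling, and between 0.18 and 0.26 when 1 array was left out. Leaving out 1 array gave between 0 and 4 ADE genes higher, and between 0 and 17 related genes higher and 0 and 11 lower of 45. Of the related genes, 1 was lower after quantile and 1 after loess scaling, and at an adjusted p under 0.10, 1 was higher and 1 lower (APT2 and FCY21). The replicate block gave 0 ADE genes higher and 0 lower, with 66 probe sets higher and 16 lower over all, against 62 and 19 without it. Deviations from the group means correlated at −0.30 between equal replicate numbers. A crossed replicate block, chosen after seeing the data, called 3 ADE genes higher, and 6 related genes higher and 3 lower, with 483 probe sets higher and 454 lower over all. Without an intensity trend, 7 probe sets were higher and 0 lower over all. Over all, a pseudocount of 64 gave 12 lower and 16 gave 14, robust eBayes gave 12 lower, and a threshold of 0.10 gave 192 higher and 173 lower. Leaving out 1 array gave between 54 and 1184 higher and between 10 and 1602 lower. The cause of these shifts was not tested.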

Other observations

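The array also carries probe sets for the ade genes of fission yeast, S. pombe, which no culture held. Of these, 7 were listed, ade1, ade2, ade3, ade4, ade6, ade8 and ade9, and their geometric mean signals over the 4 arrays lay between 0.325 and 4.67. All 9 S. cerevisiae ADE probe sets read at least 1106 in every array.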
